A study of Homo sapiens with 6 samples.

Results

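PAX2, PAX8, WT1, SIX2, EYA1, SALL1, LHX1 and OSR1 are transcription regulators that mark the embryonic kidney. Their rows were taken by gene symbol, and the set was chosen with earlier results of these data known. They were read to describe how much of that lineage identity HEK 293T cells carry and how it differs when TUT4 and TUT7 are deleted. Of the 8 factors, 7 had a row in the table of 30270 genes and all 7 passed the filter on low counts, which left 23952 genes tested. PAX8 was not analysed here. HEK 293T is an immortalized human embryonic kidney line that carries the SV40 large T antigen. Total RNA was sequenced after rRNA depletion and given as an estimated count per gene, in 3 libraries of wild-type cells (WT) and 3 libraries of the TENT3A/B double knockout (ΔTUT4/7), grown in the same medium with no treatment. TENT3A and TENT3B are other names of TUT4 and TUT7, the enzymes that uridylate the 3′ ends of RNAs. The knockout was a single line made earlier by another group, so an effect of the deletion and any other difference between the 2 lines cannot be told apart. The labels call the libraries biological replicates, and p-values measure the spread between these cultures.

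The nephron forms from intermediate mesoderm. OSR1, LHX1, PAX2 and PAX8 act early in that tissue, and PAX2, EYA1, SALL1, SIX2 and WT1 act in the cap mesenchyme, the pool of nephron progenitors that condenses around the tips of the branching ureteric bud. SIX2 keeps those cells as progenitors. When it is lost they turn into an epithelium, in which PAX8 and LHX1 are active, and WT1 finally persists in the podocytes of the glomerulus. EYA1 is a coactivator and phosphatase that works together with SIX2 and its relatives, and SALL1 is a zinc finger protein that recruits the NuRD deacetylase complex.

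Library totals ran from 18757228 to 33148937 counts, and the biological coefficient of variation was 6.44%. TUT4 was 4.29-fold higher in the libraries labelled ΔTUT4/7 (log2 fold change 2.10 ± 0.04 SE), while TUT7 fell by 1.25 ± 0.06 on the log2 scale. The TUT4 count goes against the label, but it adds up reads of every exon, also those that a deletion leaves in place, and so does not check the label. Directions below compare the libraries that carry the ΔTUT4/7 label with WT. At a false discovery rate (FDR, the Benjamini-Hochberg adjusted p) under 0.05 in edgeR, which is what a call means here, 57.7% of all tested genes differed between the groups, and 62.7% had values that did not overlap, so a call on its own is common in these data. The share called was 74.4% in the 12447 coding genes that averaged at least 50 counts per library.

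The identity of the wild-type cells was described first. Levels of different genes were compared per length, as estimated counts per kilobase of merged exons scaled to 1000000 over all genes of a library (TPM). SALL1 and SIX2 were the most abundant factors. SALL1 had 27.4, 29.1 and 25.5 TPM in WT replicates 1, 2 and 3, and SIX2 had 26.0 and 25.3 TPM in replicates 1 and 2 and was lowest in replicate 3 (mean 23.7 ± 3.31 TPM, SD, n = 3). The 2 ranges overlapped, so their order in WT was not resolved. Both lay above the median of 15.3 TPM over 14716 tested coding genes, with 67.5% of those genes below SALL1 and 63.0% below SIX2.

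The other 5 factors lay below that median. EYA1 followed at 5.60 ± 0.328 TPM (SD, n = 3), WT1 at 2.91 ± 0.0595 TPM, LHX1 at 2.60 ± 0.0794 TPM and PAX2 at 1.07 ± 0.139 TPM. OSR1 was lowest at 0.430 ± 0.0763 TPM, with 4.68% of tested coding genes below it. From SIX2 down to OSR1 the 3 values of each factor did not overlap those of the next lower one. SALL1 and SIX2 together made up most of the summed level of the 7 factors, with 42.9% and 37.3% of it. WT1, by contrast, held 4.57% and PAX2 1.68%. The factors of the cap mesenchyme were thus spread over the order, from SALL1, SIX2 and EYA1 at the top to WT1 near LHX1 and PAX2 above OSR1 only. These values depend on the length assumed: with the longest annotated transcript in place of merged exons EYA1 was at 10.1 TPM and WT1 at 6.10 TPM, while the order of the 7 means stayed as given.

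**Figure D1:**
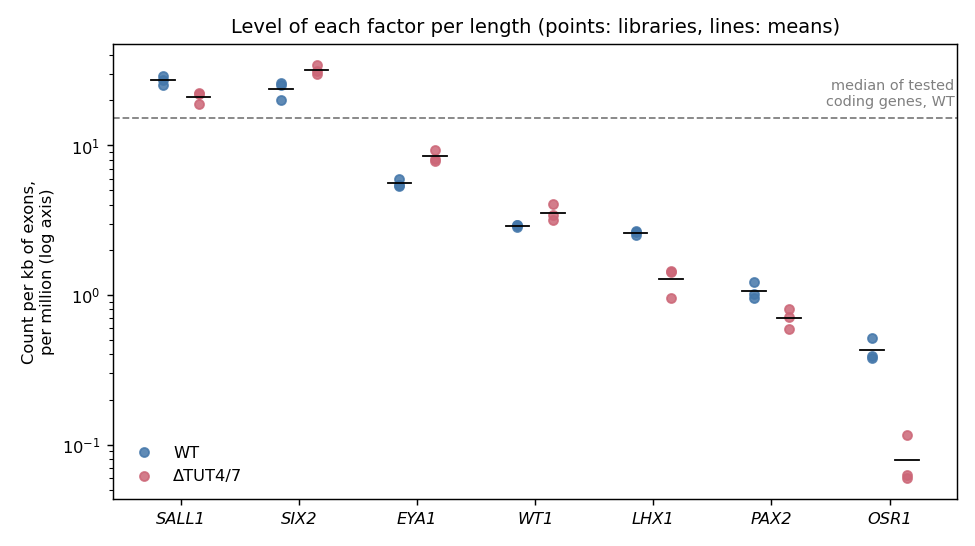
Level of each factor per length in the 3 WT and the 3 ΔTUT4/7 libraries, as estimated counts per kilobase of merged exons (TPM) on a log axis, with points for libraries and lines for means. SALL1 and SIX2 lie above the dashed median of tested coding genes (15.3 TPM in WT), and the other factors below it down to OSR1 at 0.430 TPM.

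To ask whether this identity differed in the knockout line, the factors were tested within the fit over all 23952 genes. All 7 were called, against the background of 57.7%, and all 7 had groups that did not overlap, against 62.7% of all tested genes. The share called was 74.4% in coding genes that averaged at least 50 counts, a level that PAX2 and OSR1 did not reach. WT1, SIX2 and EYA1 were higher and SALL1, PAX2, LHX1 and OSR1 were lower in ΔTUT4/7, against 28.6% of all genes called higher and 29.0% called lower. The median log2 fold change of the 7 was -0.33, beside -0.02 over all tested genes. The calls of WT1 and PAX2 were lost in 7 and 5 of 16 alternative fits, and the others in none. The median absolute log2 fold change over all tested genes was 0.47. WT1 and SALL1 lay below it, SIX2 close to it at 0.48, and PAX2, EYA1, LHX1 and OSR1 above it. OSR1 alone was both called and changed 2-fold or more, as were 18.3% of all tested genes in either direction. Because the RNA came from whole cultures, fewer cells expressing a factor and less RNA per cell cannot be told apart.

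**Figure D2:**
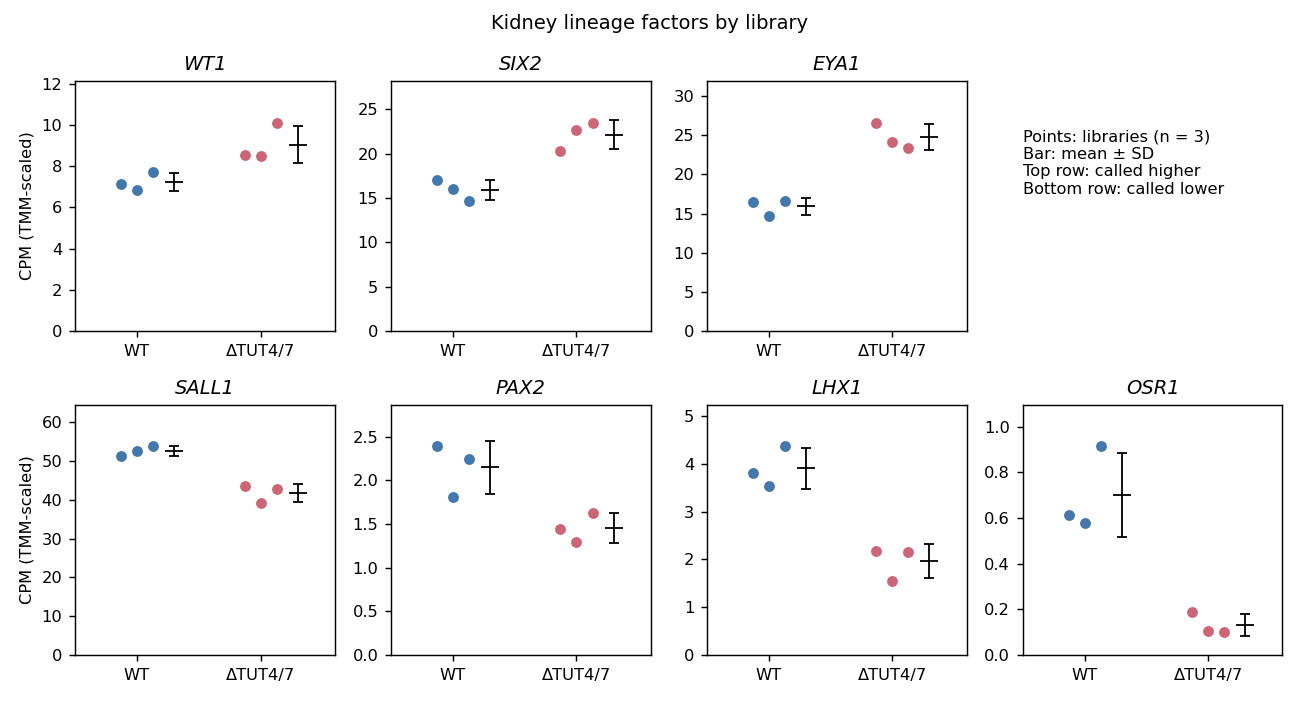
CPM relative to the TMM-scaled library size for each factor in every library, with points for libraries and bars for mean ± SD (n = 3). The 3 factors of the top row are higher in ΔTUT4/7 and the 4 of the bottom row lower. The groups do not overlap in any panel, as in 62.7% of all tested genes.

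Among the progenitor factors, EYA1 changed most. EYA1 (chromosome 8, 71197433 to 71592025, minus strand, hg38) had 16.5, 14.7 and 16.6 counts per 1000000 of the TMM-scaled library size (CPM) in WT replicates 1 to 3 and 26.6, 24.2 and 23.4 CPM in ΔTUT4/7. Every ΔTUT4/7 library lay well above every WT library. The log2 fold change was 0.64 ± 0.09 (SE), which is 1.56-fold, with an adjusted p of 1.28e-06 in edgeR. The lncRNA AC015687.1, which overlaps the 3′ part of EYA1 on the other strand, was measured at 1.32 ± 0.233 CPM in WT against 1.65 ± 0.260 CPM in ΔTUT4/7 and was not called (adjusted p 0.317 in edgeR). How read strand was handled is not given in the sources used here, so reads of overlapping genes cannot be separated with certainty.

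SIX2 (chromosome 2, 45005182 to 45009452, minus strand), the factor that holds nephron progenitors in their state, rose as well. It had 17, 16 and 14.7 CPM in WT and 20.3, 22.7 and 23.5 CPM in ΔTUT4/7. The lowest knockout library exceeded the highest WT library by more than the WT libraries differed among themselves. The log2 fold change was 0.48 ± 0.09, which is 1.39-fold (adjusted p 8.14e-05 in edgeR). In level per length SIX2 reached 32.0 ± 2.41 TPM in ΔTUT4/7 and SALL1 21.1 ± 1.93 TPM, and these 2 sets of values did not overlap.

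SALL1 (chromosome 16, 51135975 to 51151367, minus strand) had the highest counts of the 7, between 760 and 1650 per library, and its change was the most precisely measured. It had 51.3, 52.6 and 53.8 CPM in WT and 43.5, 39.2 and 42.8 CPM in ΔTUT4/7. The groups were separated although the step between them was small. SALL1 fell by 0.33 ± 0.06 on the log2 scale (adjusted p 7.11e-05 in edgeR), and 62.8% of all tested genes had a larger absolute change. The 3 cap mesenchyme factors of highest level therefore moved in different directions, SIX2 and EYA1 upward and SALL1 downward. All 3 calls held in each of the 16 alternative fits.

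WT1 (chromosome 11, 32387775 to 32435564, minus strand), a zinc finger factor needed in the early kidney and later in podocytes, had 7.13, 6.85 and 7.73 CPM in WT and 8.52, 8.51 and 10.1 CPM in ΔTUT4/7. The gap between the groups was smaller than the spread of the knockout libraries, in which replicate 3 stood above the other two. The log2 fold change was 0.32 ± 0.12 (adjusted p 0.0289 in edgeR). This call was lost in 7 of 16 alternative fits, among them DESeq2 (adjusted p 0.0806), scaling by library size alone (0.20, adjusted p 0.159) and the fits without WT replicate 1, WT replicate 2 or ΔTUT4/7 replicate 3, where the log2 fold change was 0.30, 0.27 and 0.23. The antisense lncRNA WT1-AS starts head to head with WT1 and overlaps its first bases. It had 1.32, 1.27 and 1.14 CPM in WT and 1.15, 1.08 and 0.766 CPM in ΔTUT4/7. The 2 ranges overlapped and it was not called (log2 fold change -0.29 ± 0.27, adjusted p 0.391 in edgeR).

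PAX2 (chromosome 10, 100735603 to 100829944, plus strand), a paired-domain factor of the ureteric bud and early nephron, was low in both groups. It had 47, 47 and 69 counts in WT replicates 1 to 3 and 46, 25 and 32 counts in ΔTUT4/7. In CPM these were 2.39, 1.81 and 2.25 against 1.44, 1.29 and 1.63, so the groups lay next to each other without overlap. PAX2 fell by 0.56 ± 0.23 on the log2 scale with an adjusted p of 0.0409 in edgeR. The call was lost in DESeq2 (adjusted p 0.137) and without WT replicate 1 or 3 or ΔTUT4/7 replicate 1 or 2, where the log2 fold change ran from -0.55 to -0.49. The 99 other expressed genes with a start within 5 Mb of PAX2 had a median log2 fold change of 0.39, with 65 called higher and 13 lower. Relative to that median the change of PAX2 was -0.95.

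LHX1 (chromosome 17, 36936785 to 36944612, plus strand), a LIM homeodomain factor required for the early nephric duct and the renal vesicle, was 1.98-fold lower in ΔTUT4/7. It had 75, 92 and 134 counts in WT and 70, 30 and 42 counts in ΔTUT4/7. In CPM these were 3.82, 3.54 and 4.37 against 2.18, 1.55 and 2.15. Every knockout library lay below every WT library. The log2 fold change was -0.98 ± 0.20 (adjusted p 0.000177 in edgeR), and the call held in all 16 alternative fits.

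The genes on either side of LHX1 were read beside it. LHX1-DT (chromosome 17, 36861674 to 36936670, minus strand) is the divergent lncRNA of the locus. It had 2.75, 2.08 and 2.45 CPM in WT and 0.811, 1.08 and 0.868 CPM in ΔTUT4/7. It was lower in every knockout library, with a log2 fold change of -1.40 ± 0.24 (adjusted p 4.21e-05 in edgeR). AATF (chromosome 17, 36948954 to 37056871, plus strand), a gene for a nucleolar protein of ribosome synthesis that starts just past the 3′ end of LHX1, rose from 41.9 ± 2.88 to 89.8 ± 3.41 CPM (1.10 ± 0.06 on the log2 scale). Over the 101 expressed genes within 5 Mb of LHX1 the median log2 fold change was 0.06, with 36 called higher and 28 lower. LHX1 and its divergent partner thus fell between neighbours that moved in both directions. The 114 bases between the annotated starts of the 2 genes are shown because both transcripts leave from its edges (hg38, plus strand, chr17:36936671-36936784). Capitals mark CG dinucleotides.
LHX1 and LHX1-DT: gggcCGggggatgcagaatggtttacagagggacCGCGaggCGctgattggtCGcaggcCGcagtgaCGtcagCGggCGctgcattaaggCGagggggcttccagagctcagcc

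The stretch was 66.7% G or C and held 10 CG dinucleotides, a number that 34.8% of 35116 RefSeq promoters (GRCh38.p14) reached over the same length upstream of their start, where the median was 5. Searched on both strands, it held CCAAT, found in 19.8% of those windows, and TGACGTCA, found in 1.26% and searched for after the sequence had been read. It did not hold TATAAA, found in 5.42%. The LHX1 start used here is that of a transcript without an annotated coding part, and the coding transcript of LHX1 starts further downstream. A match to these letters is a description and no evidence of a bound site.

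**Figure D3:**
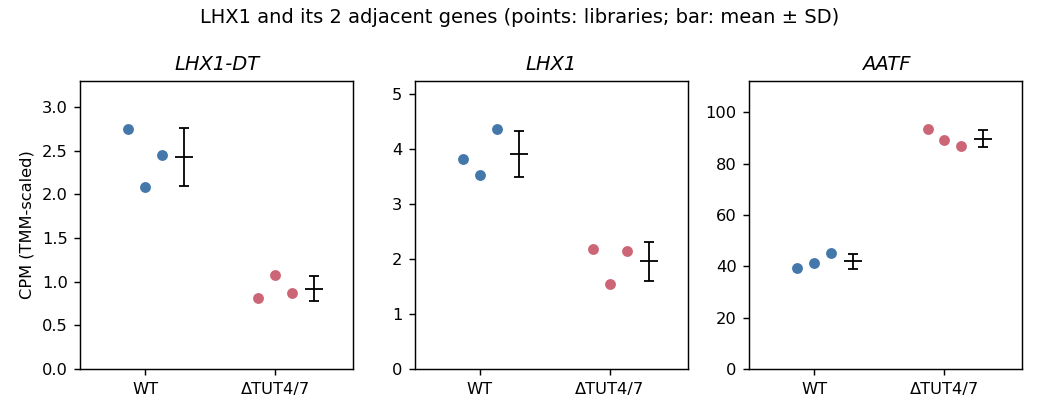
CPM of LHX1-DT, LHX1 and AATF in every library, in their order on chromosome 17, with points for libraries and bars for mean ± SD (n = 3). LHX1-DT and LHX1 are lower and AATF is higher in all 3 ΔTUT4/7 libraries.

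OSR1 (chromosome 2, 19351485 to 19358623, minus strand), the zinc finger factor of the earliest intermediate mesoderm, was close to the limit of detection. It had 12, 15 and 28 counts in WT and 6, 2 and 2 counts in ΔTUT4/7. In CPM these were 0.611, 0.577 and 0.913 against 0.187, 0.103 and 0.102. OSR1 fell by 2.31 ± 0.53 on the log2 scale (adjusted p 0.000719 in edgeR), which is 4.97-fold lower, and 4.68% of all tested genes had a larger absolute change. The call held in all 16 alternative fits, whereas on the log2(CPM + 1) scale, which shrinks changes of low genes, the value was -0.61. The lncRNA LINC01376, whose start lies within 5 kb of the 3′ end of OSR1, fell by 1.22 ± 0.44 on the log2 scale with 54 counts over the WT libraries and 22 over those of ΔTUT4/7. That call was lost in 4 of 16 alternative fits, which were DESeq2 and those without WT replicate 2 or ΔTUT4/7 replicate 2 or 3. The 27 expressed genes near OSR1 had a median of 0.26.

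**Figure D4:**
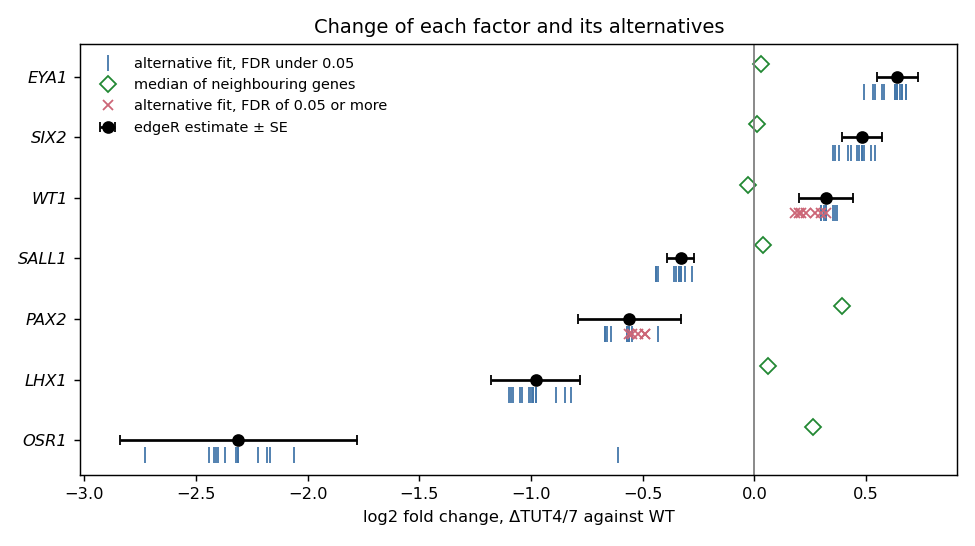
Log2 fold change of each factor with its SE (black), the value in each of 16 alternative fits (bars where the FDR was under 0.05, crosses where it was not) and the median of expressed genes within 5 Mb (diamonds). Every value of a factor lies on 1 side of 0, crosses appear for WT1 and PAX2 only, and the lone OSR1 bar at -0.61 is the log2(CPM + 1) scale.

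Genes with values close to those of a factor over the 6 libraries were listed. With 3 libraries per group, closeness largely means an equal step between the groups, so it does not show shared regulation. Likeness was measured as the root mean square difference of log2 CPM after centring each gene, over 15573 other tested genes that averaged at least 50 counts. The nearest to LHX1 were AC092447.1, PLXNA2 and LINC01772 (0.0493, 0.0701 and 0.0739), and 13 genes lay within 0.1. Their log2 fold changes, in that order, were -1.07, -1.02 and -0.95, beside -0.98 for LHX1. The nearest to SALL1 were SNX30, RNF213-AS1 and GLI3 (0.0244, 0.0275 and 0.0289), but 1142 genes lay within 0.1 of it. The nearest to SIX2 were AL358334.3, ARPC5L and JAK2, to EYA1 FAM50A, VAV2 and KRBA1, and to WT1 C6orf136, NR6A1 and AC141586.1, with 637, 669 and 449 genes within 0.1.

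The study also sequenced microRNAs of these lines. The let-7 family, whose precursors TUT4 and TUT7 act on, comprises microRNAs that pair with mRNAs through a shared seed (bases 2 to 8, in capitals). The let-7a-5p sequence from RefSeq (GRCh38.p14) is shown with the seed matches found in the factors' annotated 3′ untranslated regions (GENCODE release 44, canonical transcripts). In the sites the capitals mark CTACCTC, the reverse complement of the seed on the strand of the mRNA.
let-7a-5p: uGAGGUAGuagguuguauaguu
PAX2 site (chr10:100828440-100828446): agccctgccttgcccCTACCTCag
SIX2 site (chr2:45005599-45005605): gtggtctatctgcccCTACCTCtg

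These were the only seed matches in the 7 factors, with 1 in PAX2 and 1 in SIX2, and 0 in WT1, EYA1, SALL1, LHX1 and OSR1. The PAX2 match is followed by an A and the SIX2 match is not. Over 14379 tested coding genes, 11.0% held a match. For untranslated regions of 500 to 1000 bases, as in SIX2 (988), the share was 4.88%, and for 2000 to 4000 bases, as in PAX2 (2325), it was 15.3%. PAX2 was among the lower factors and SIX2 among the higher ones, so the 2 factors with a match moved in opposite directions.

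The paralogs and partners of the factors were counted next. Of 28 tested family relatives (other genes of the same families and of the DACH and EGR families), 8 were called higher and 15 lower, with a median log2 fold change of -0.20. The share called was 82.1%, against 57.7% over all tested genes and 74.4% over coding genes that averaged at least 50 counts. EYA3 and DACH1 had the highest level per length in WT, with 47.0 and 40.8 TPM. EYA3 rose by 0.49 ± 0.05 on the log2 scale and DACH1, which works with EYA proteins, fell by 0.59 ± 0.05. The 3 smallest p-values among called relatives were in EYA4, LHX8 and SALL4. EYA4 fell from 98.2 ± 1.71 to 53.5 ± 0.586 CPM (-0.88 ± 0.05 on the log2 scale). LHX8, a LIM homeodomain relative of LHX1, fell from 9.78 ± 0.235 to 1.01 ± 0.286 CPM. SALL4, the relative of SALL1 known from pluripotent cells, fell from 6.25 ± 0.426 to 0.429 ± 0.283 CPM (-3.99 ± 0.29 on the log2 scale). Adjusted p in edgeR was 2.48e-12 for EYA4, 1.24e-12 for LHX8 and 9.89e-10 for SALL4. Expressed genes within 5 Mb had a median log2 fold change of -0.45 for EYA4 and -0.34 for DACH1. Near EYA3, LHX8 and SALL4 that median was -0.01, 0.20 and 0.09.

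Among 28 tested kidney transcription regulators outside these families, 7 were higher and 13 lower (median -0.13). That is 71.4% called, beside 74.4% over coding genes that averaged at least 50 counts. With scaling by library size alone 4 were higher and 13 lower. HOXD10 and FOXC1 had the highest levels per length in WT (115 and 83.6 TPM). HOXD10, a patterning gene, fell by 0.65 ± 0.06 on the log2 scale. FOXC1, a forkhead factor of the early mesoderm, rose by 0.20 ± 0.06, a call that was lost with library size alone, upper-quartile scaling and log2(CPM + 1). Genes with the smallest p-values were lower. POU3F3, a POU factor of the distal nephron, fell from 79.9 ± 5.12 to 13.3 ± 0.467 CPM (log2 fold change -2.58 ± 0.07). GATA3, a zinc finger factor of the nephric duct, fell from 21.1 ± 2.18 to 3.30 ± 0.0736 CPM (-2.67 ± 0.12).

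Of 22 tested cofactors of the factors 21 were called, of which 15 were higher and 6 lower (median 0.31). RBBP7 and HDAC1, subunits of the NuRD complex, had the highest levels per length (236 and 166 TPM in WT) and moved in opposite directions, with log2 fold changes of -0.36 ± 0.05 and 0.67 ± 0.05. RBBP4, a close paralog of RBBP7, rose by 0.75 ± 0.04. BASP1, a cosuppressor that binds WT1, fell from 22.6 ± 2.83 to 2.32 ± 0.202 CPM (-3.27 ± 0.13 on the log2 scale) (adjusted p 6.81e-15 in edgeR). The share called was 95.5%, beside 74.4% over coding genes that averaged at least 50 counts.

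Of 29 tested nephrogenic signals and receptors, 9 were higher and 13 lower (median -0.07). These calls made up 75.9% of those tested, beside 74.4% over coding genes that averaged at least 50 counts. HEY1 and NOTCH2, of the Notch pathway, had the highest levels per length in WT (119 and 65.5 TPM). NOTCH2 rose by 0.25 ± 0.04 and HEY1 was not called (0.07 ± 0.04). GDNF, the signal by which the metanephric mesenchyme attracts the ureteric bud and a known target of PAX2 and EYA1, fell from 416 counts over the WT libraries to 13 over those of ΔTUT4/7, or from 5.49 ± 0.328 to 0.182 ± 0.0268 CPM (log2 fold change -4.87 ± 0.26, adjusted p 1.15e-12 in edgeR). FAT4, an atypical cadherin of the kidney stroma, fell by 1.74 ± 0.06 and lies where neighbouring genes had a median of -0.81. WNT5A, a Wnt ligand that shapes the early metanephric mesenchyme, fell by 1.24 ± 0.06. The direction of GDNF differed from that of SIX2 and EYA1, and was shared with SALL1 and PAX2.

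**Figure D5:**
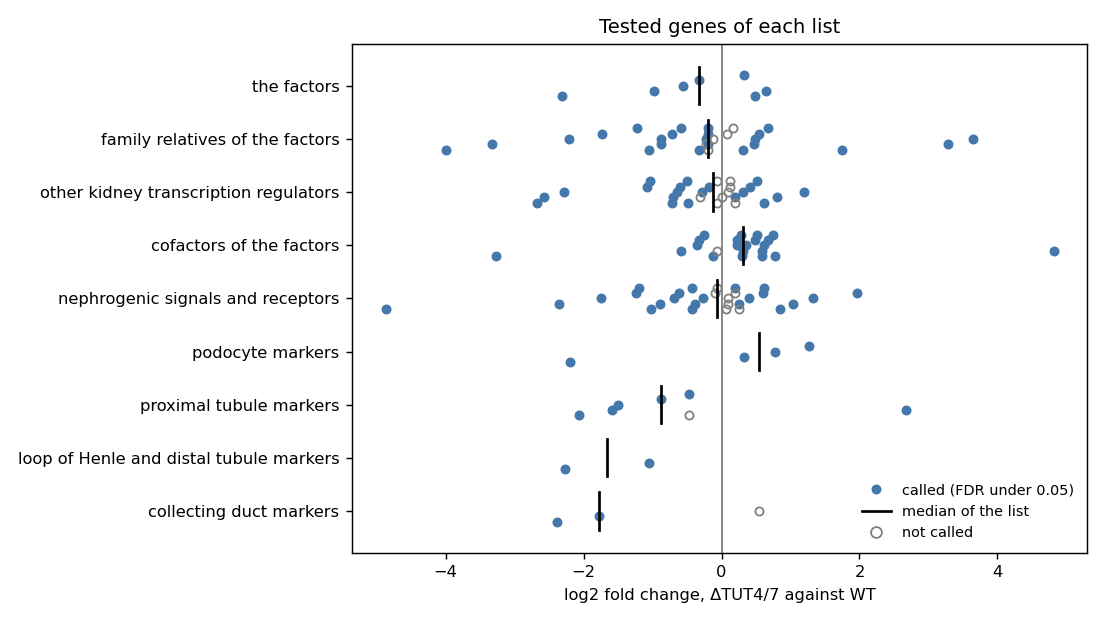
Log2 fold change of every tested gene in the kidney lists (markers of other cell types are not drawn), with filled points for genes called at an FDR under 0.05, open points for others and black lines for medians. The factors themselves span -2.31 to 0.64, and the medians of the cofactors (0.31) and podocyte markers (0.55) lie above 0.

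Markers of differentiated nephron segments were read to check the kidney label. Of the markers with a row, 3 of 5 for podocytes, 5 of 7 for the proximal tubule, 1 of 4 for the loop of Henle and distal tubule and 2 of 5 for the collecting duct were at 1 TPM or more in WT. A further 13 listed markers had no row and were not analysed here. The most abundant was CD2AP at 58.5 TPM, an adaptor protein that is not limited to podocytes. PODXL, a podocyte surface sialomucin that WT1 is known to activate, rose from 15.3 ± 1.63 to 36.7 ± 1.93 CPM (log2 fold change 1.27 ± 0.08). SYNPO, a podocyte actin-binding protein, fell from 5.93 ± 0.805 to 1.28 ± 0.227 CPM. Of the proximal tubule receptors for endocytosis, LRP2 rose from 6.53 ± 1.23 to 41.2 ± 2.83 CPM (2.68 ± 0.10) and its partner CUBN fell from 4.02 ± 0.243 to 0.944 ± 0.525 CPM (-2.06 ± 0.28). GGT1, a brush border enzyme, fell by 1.5 ± 0.22, and SLC3A1, an amino acid transporter subunit with 1.82 TPM in WT, fell by 0.47 ± 0.19 (adjusted p 0.0369 in edgeR), a call lost in 5 of 16 alternative fits. In the distal segments TRPM6 fell by 1.05 ± 0.20, KCNJ1 by 2.27 ± 0.46 and ATP6V1B1 by 1.78 ± 0.25, each with fewer than 5 CPM in WT, and AQP3 was not called (0.54, adjusted p 0.101 in edgeR). Over the 4 segments, 4 of 16 tested markers were higher and 10 lower, against 28.6% of all tested genes called higher and 29.0% lower.

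Markers of other cell types moved between the groups as well, beside 57.7% called over all tested genes. Their part in the changes of the kidney factors was not tested. Of 9 tested neuronal and chromaffin markers 6 were higher and 2 lower. The summed level of that list ran from 1160 to 1200 TPM in WT and from 133 to 144 TPM in ΔTUT4/7, since NEFM went from 74948 counts over the WT libraries to 1 and NEFL fell from 352 ± 12.4 to 105 ± 1.33 CPM. INA and SYP rose by 3.74 ± 0.11 and 1.90 ± 0.13 on the log2 scale. Of 5 tested mesenchyme and fibroblast markers 1 was higher and 2 lower, and the summed level rose from between 281 and 355 TPM to between 740 and 793 TPM through VIM, while COL1A1 fell by 1.45 ± 0.10. Of 6 tested markers of simple epithelium 1 was higher and 3 lower. CDH1, the epithelial cadherin, had 308 counts over the WT libraries and 4 over those of ΔTUT4/7, and EPCAM had 86 and 0. KRT18 rose by 0.54 ± 0.06 and KRT8 fell by 1.54 ± 0.18, although these 2 genes overlap on opposite strands. The summed level of the epithelial list was 40.2 to 43.5 TPM in WT and 45.9 to 51.7 TPM in ΔTUT4/7. It rose through KRT18, with a mean of 32.6 TPM in WT and 46.0 TPM in ΔTUT4/7. The other listed epithelial markers with a row had lower means in ΔTUT4/7.

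Adrenal cortex, endothelial and blood cell markers were at or near the limit of detection. NR5A1, the defining adrenal factor, had 7 counts over the WT libraries and 12 over those of ΔTUT4/7, and the summed level of the adrenal list was 2.46 to 3.91 TPM in WT and 3.17 to 3.58 TPM in ΔTUT4/7. Of its 2 tested markers NR0B1 was called higher (0.85 ± 0.33, adjusted p 0.0324 in edgeR), a call lost in 8 of 16 alternative fits, and STAR was not called. Endothelial markers summed to 0.509 to 0.681 TPM in WT and 0.128 to 0.392 TPM in ΔTUT4/7, with KDR called lower and TEK at 11 counts in WT and 0 in ΔTUT4/7. Blood cell markers summed to 2.80 to 4.05 TPM in WT and 6.99 to 8.75 TPM in ΔTUT4/7, with HBA1 called higher from 9 to 90 counts. HBA1 has a near-identical paralog, so its count is uncertain. KDR passed the filter on low counts only through WT and HBA1 only through ΔTUT4/7, the group where each is high.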

How the data were processed

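Total RNA of 3 WT and 3 ΔTUT4/7 cultures was depleted of rRNA and sequenced. The authors aligned paired reads to hg38 with STAR 2.7.3a and quantified Ensembl release 102 genes in Partek Flow 10.0.22 by expectation maximisation, so the deposited values are estimated counts, of which 45.2% to 50.0% per library were not whole. Read strand handling was not given in the sources used here. A deposited table of the authors' own comparison (p-values, FDR, ratios, fold changes and group means) was not used. The smallest summed count of a listed gene was 10, and genes without a row were not analysed here.

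Counts were rounded. Genes with a largest count above 12 were tested with edgeR 4.0.16 under R 4.3.3 (TMM factors, robust glmQLFit and glmQLFTest with the group alone as a term), and p-values were adjusted by Benjamini-Hochberg over all 23952 genes. A gene was called at an FDR under 0.05. SE values come from the F statistic. This procedure was tested on simulated data with 200 changed genes among 23952, drawn from those that averaged at least 50 counts. There 93% of 2-fold and 99% of 3-fold changes between the groups were recovered and 0.101% of unchanged genes were called. These rates do not cover changes under 2-fold, or PAX2 and OSR1, which averaged fewer counts. Far fewer genes changed in the simulation than were called in the data (57.7%). Table stops lie 1 base past annotated ends, so ends are printed with that base taken off. Lengths came from GENCODE release 44, for 29836 genes that held at least 99.543% of each library. Alternatives were scaling by library size without factors, upper-quartile and RLE factors, TMM without the 20 largest and mitochondrial genes, DESeq2 1.42.0, limma-voom and limma 3.58.1 on log2(CPM + 1), 2 other count filters, a replicate block and each library left out, 16 fits in all. Named genes are TUT4, TUT7, the factors, genes overlapping a factor or within 5 kb, the 2 genes of highest WT level and the 3 called genes of smallest p (mean count of 50 or more) in each list, and the 3 nearest in pattern. EPCAM and NR5A1 fall outside this rule and were named after their values were seen, and some genes that the rule names are not reported here. The factors and lists were chosen with earlier results of these data known.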

Additional observations from a re-analysis of the deposited data

How the results depend on the processing

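All 7 factors kept their direction in all 16 alternative fits, and SIX2, EYA1, SALL1, LHX1 and OSR1 kept their call in each. Without scaling factors, on library size alone, the median over all genes moved by -0.11 (log2), and directions of the factors were the same relative to it. The WT1 call was lost in DESeq2 (0.32), library size alone (0.20), upper-quartile factors (0.21) and log2(CPM + 1) (0.18), and with 1 library left out its value ran from 0.23 to 0.37. The PAX2 call was lost in DESeq2 (-0.56), and with 1 library left out its value ran from -0.67 to -0.49. Subtracting the median of neighbouring genes gave -0.95 for PAX2 and -0.37 for SALL1. Family relatives called higher numbered 5 on the log2(CPM + 1) scale and 5 to 7 with 1 library left out (5 without ΔTUT4/7 replicate 1), against 8, and other kidney regulators called higher numbered 4 with library size alone, against 7. Of 44 other named genes called, 40 were called in every fit. HEY1, not called, turned to -0.04 with library size alone and on log2(CPM + 1) and to -0.03 with upper-quartile factors. The cause of these shifts was not tested.

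With the longest transcript as length, WT levels were 1.36 TPM for PAX2, 6.10 for WT1, 19.5 for SIX2, 10.1 for EYA1 and 3.06 for LHX1. Per kilobase of TMM-scaled CPM, which is another unit, they were 0.327 for PAX2, 0.889 for WT1, 7.21 for SIX2, 1.71 for EYA1, 8.34 for SALL1, 0.796 for LHX1 and 0.133 for OSR1. Replicate numbers are shared by the groups. No common deviation of libraries of the same number was seen (r of 0.0519, -0.0115 and -0.0222 for replicates 1 to 3 across genes). This cannot tell whether they were handled together. With the replicate block PAX2 was at -0.57 (adjusted p 0.0491 in edgeR) and WT1 at 0.32 (adjusted p 0.0269 in edgeR), and all 7 calls were kept. The planned balance of PAX2 and PAX8 was not run, since PAX8 was not analysed here. Depth limits OSR1 and PAX2, with 55 and 163 counts over the WT libraries.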
